A study of Homo sapiens with 12 samples.

Results

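The 40 genes described here encode the general actin cytoskeleton of a non-muscle cell and the adhesion plaques that anchor it. They were taken by name from the 27130 genes of the deposited table, and all 40 were among the 15437 genes that passed the filter on low counts. The list holds the cytoplasmic actins ACTB and ACTG1, 8 crosslinking and other actin-binding proteins (ACTN1, ACTN4, FLNA, TAGLN2, CNN2, CNN3, LIMA1 and LASP1), and the tropomyosins TPM3 and TPM4. It further holds 5 subunits of non-muscle myosin II (MYH9, MYH10, MYL6, MYL12A and MYL12B), 5 genes of the cofilin and profilin families (CFL1, CFL2, DSTN, PFN1 and PFN2), 2 capping protein subunits (CAPZA1 and CAPZB) and 3 subunits of the ARP2/3 complex (ARPC1B, ARPC2 and ARPC5). The ezrin, radixin and moesin (ERM) family is complete with 3 genes (EZR, RDX and MSN), 7 genes encode focal adhesion proteins (VCL, TLN1, ZYX, PXN, VASP, PDLIM7 and TES), and SRF, MKL1 and MKL2 encode transcription factors and coactivators. Gene symbols are those of the deposited table. MKL1 and MKL2 are now called MRTFA and MRTFB.

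Actin exists as monomers and as filaments. Profilins feed monomers to growing filament ends, capping protein stops growth, the ARP2/3 complex starts branches, and cofilins sever old filaments. Crosslinkers and myosin II bundle and pull the filaments, ERM proteins tie them to the plasma membrane, and talin, vinculin, paxillin and zyxin join them to integrins at focal adhesions. When monomers are scarce, the MKL coactivators leave actin, enter the nucleus and activate SRF, which binds a short A and T rich element, the CArG box, in the promoters of many actin and adhesion genes. Human embryonic stem cells grow as compact epithelial colonies under strong actomyosin tension.

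The samples were 12 poly(A) RNA libraries of the human embryonic stem cell line H1 (WA01), 3 in each of 4 groups. They comprised wild type, a homozygous ZNF263 KO (knockout), cells with a homozygous ZNF263 KO that also overexpressed ZIC2 (ZNF263 KO with ZIC2 OE), and cells that overexpressed ZNF263 (ZNF263 OE). ZNF263 and ZIC2 encode zinc finger transcription factors, and per the series design the study concerned the role of ZNF263 in pluripotency, with ZIC2 as its cofactor. Wild type and knockout libraries carry the tag vec in their names. The kind of edit, the number of clones, the promoters of the transgenes and any separate culture of replicates are not given in the sources used here. What the p-values measure is thus only how these libraries spread, which may be technical. In bulk RNA, fewer cells that express a gene and less RNA per cell cannot be told apart.

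Libraries held 17175183 to 21804410 counts, except knockout replicate 1 with 43464609. Levels below are CPM, library-scaled counts (TMM) relative to the library total. ZNF263 stood at 38.2 to 40.7 CPM in wild type, 30.9 to 31.2 in knockout, 30.1 to 35.9 in knockout with ZIC2 and 219 to 251 in its overexpression. ZNF263 transcript therefore remained in the libraries labelled knockout, below the wild type level (log2 fold change -0.33, SE 0.07, adjusted p = 0.000302). ZIC2 stood at 205 to 212 CPM in wild type, 152 to 159 in knockout, 1878 to 2226 in knockout with ZIC2 and 209 to 217 in ZNF263 OE. Knockout replicate 2 stood apart from the other replicates of its group, with a chi-square of 10.5 and 5.28 per gene against them and of 3.43 between those. Of the pluripotency markers, 9 of 9 were expressed in every group, with summed levels of 8388 to 8447 CPM in wild type, 8758 to 8947 in knockout, 8447 to 8591 in knockout with ZIC2 and 8599.9 to 8781 in ZNF263 OE. A gene was called changed at an adjusted p under 0.05 in the quasi-likelihood test of edgeR, adjusted by the Benjamini-Hochberg method over the 15437 tested genes, and all adjusted p-values of genes below are from that test. Of the 9 pluripotency markers, 5 were called higher and 1 lower in knockout, against 20% and 18.5% of all tested genes. The level of L1TD1 fell, with means of 1515 CPM in wild type and 1260 in knockout.

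The promoters of the 40 genes were searched for the element that SRF binds. RefSeq promoter windows (GRCh38.p14, 250 bases before to 50 after the start) were matched by symbol for 37 of the 40 genes, with 63 windows in all. ACTB, PFN2 and ARPC1B were not matched. A CArG box was searched on both strands as an exact match of 10 bases, CC, then only A or T, then GG. Looser forms of the box were not counted. It was found for 7 of the 37 genes (18.9%), against 1.60% of all 27305 genes with a window. Of the 63 windows 11.1% held a box, against 1.29% of all 35116. The genes were ACTG1, ACTN1, FLNA, CNN2, TPM4, TES and SRF. The list was chosen by function, with earlier results known, and holds SRF itself. These shares therefore describe the list, and a part of SRF in the changes was not tested. The following stretches are shown because they hold the boxes nearest to the start, with the box in capitals, 5′ to 3′ on the strand of the gene:
SRF (chr6:43171209-43171268, plus strand): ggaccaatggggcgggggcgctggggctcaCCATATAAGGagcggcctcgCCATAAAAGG
ACTG1 (chr17:81512854-81512923, minus strand): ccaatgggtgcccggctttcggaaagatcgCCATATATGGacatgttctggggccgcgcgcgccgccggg
CNN2 (chr19:1026489-1026558, plus strand): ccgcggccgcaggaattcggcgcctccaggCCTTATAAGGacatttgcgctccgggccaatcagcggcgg
FLNA (chrX:154374689-154374758, minus strand): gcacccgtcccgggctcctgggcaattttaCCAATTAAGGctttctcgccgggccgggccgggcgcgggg
SRF holds 2 boxes, so the gene of the factor carries its own element. The motif GGAGGAGG, part of the sequence that ZNF263 is known to bind, was searched on both strands of the same windows. TPM4 was the 1 gene with both motifs, which do not overlap there. It was found for 9 of the 37 genes (24.3%) against 12.8% of all genes, and in 17.5% of the windows against 10.9%. Its genes were TAGLN2, CNN3, LASP1, TPM4, MYL12B, MSN, ZYX, MKL1 and MKL2. A match is a run of letters and was not shown to be bound in these cells.

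In wild type cells the 40 genes together took 2.17 to 2.23% of all counts. Per kilobase of exon length as deposited, the actins led the list, ACTB (chr7:5566779-5570232, hg19) at 2637 CPM per kb and ACTG1 (chr17:79476997-79479892) at 1499. The monomer-binding and severing proteins PFN1 (1001 CPM per kb) and CFL1 (686) came next, followed by the myosin light chain MYL6 (544), TPM4 (225) and FLNA (217). Within some families 1 member dominated: PFN1 was well above PFN2 (94.8 CPM per kb), CFL1 above DSTN (141) and CFL2 (9.37), and EZR (152) above MSN (63.01) and RDX (28.7). The heavy chains MYH9 (98.8 CPM per kb) and MYH10 (106) stood close together. So did the actinins ACTN1 (98.9) and ACTN4 (92.0) and the light chains MYL12A (82.0) and MYL12B (78.3). SRF stood at 34.2 CPM per kb, and the coactivators MKL1 (6.96) and MKL2 (4.45) were the lowest of the list, just under CFL2 and TES (10.3).

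**Figure D1:**
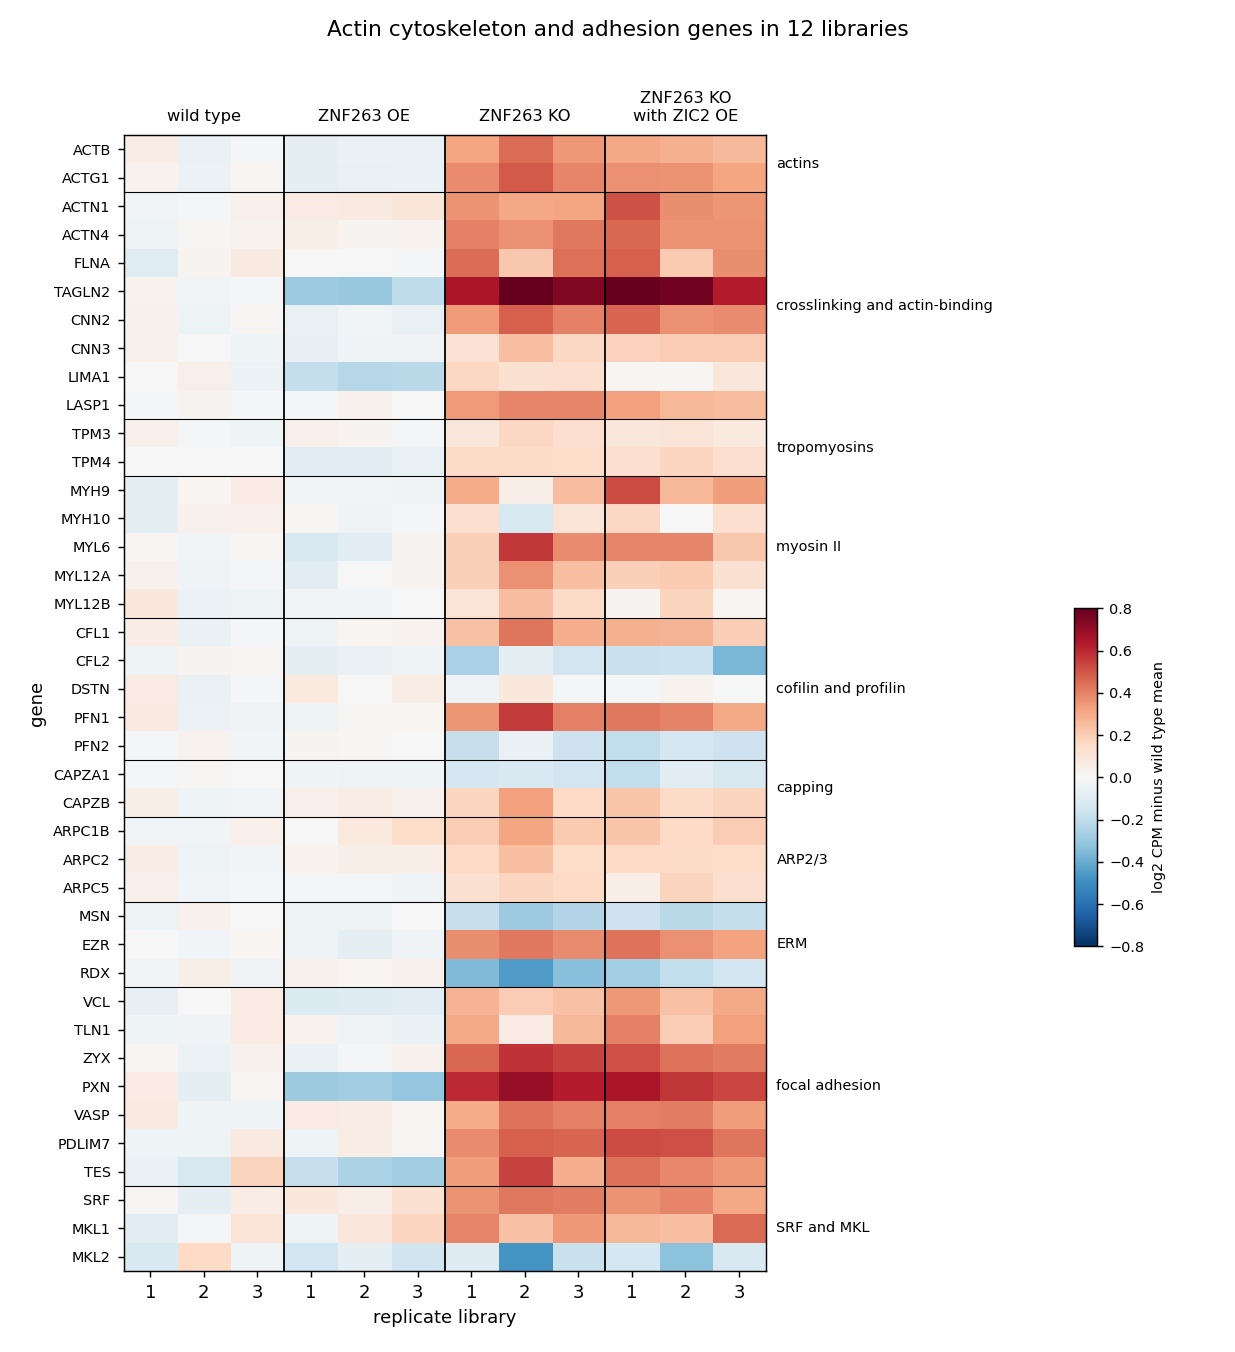
Each cell is the log2 CPM of 1 gene (rows, grouped by role) in 1 library (columns) minus the mean of the 3 wild type libraries, with red for higher and blue for lower. The 6 libraries with the ZNF263 knockout are red for most genes, TAGLN2 and PXN most of all, and blue for RDX, MSN, CFL2, PFN2, CAPZA1 and MKL2.

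In knockout cells most of these genes were modestly higher than in wild type. Of the 40, 32 were called higher, against 20% of all tested genes, and 6 were called lower (CAPZA1, PFN2, CFL2, MKL2, MSN and RDX), against 18.5%. MYH10 and DSTN were not called. The replicates of the groups did not overlap for 31 genes that were higher (23.6% of all tested genes) and 5 that were lower (23.1%). The median log2 fold change was 0.25, against -0.01 over all tested genes, and the values ran from -0.38 for RDX to 0.77 for TAGLN2, so no gene changed by as much as 2-fold. Together the 40 genes took 2.64 to 2.72% of all counts in knockout, and their summed CPM was 1.25 times that of wild type. Without knockout replicate 2, 33 genes were called higher and 5 lower, against 19.1% and 16.9% of all tested genes.

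Both cytoplasmic actins rose. ACTB stood at 4979.9, 4599.8 and 4755 CPM in the 3 wild type libraries and at 5956, 6503 and 6079 in knockout (log2 fold change 0.37, SE 0.03, adjusted p = 1.39e-08). ACTG1 stood at 3218, 3057 and 3188 CPM in wild type and at 4102, 4435 and 4139.5 in knockout (log2 fold change 0.42, SE 0.03, adjusted p = 9.89e-10). For both genes every knockout library was above every wild type library, and knockout replicate 2 was the highest. The ratio of ACTB to ACTG1 was 1.49 to 1.55 in wild type and 1.45 to 1.47 in knockout.

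The 8 crosslinking and actin-binding genes were all called higher, with a median log2 fold change of 0.37. TAGLN2 (chr1:159887897-159895332), which encodes transgelin-2, a stabiliser of filaments, had the largest change of the 40 genes. Its levels were 57.5, 55.5 and 56.1 CPM in wild type and 88.6, 108 and 94.1 in knockout (log2 fold change 0.77, SE 0.06, adjusted p = 2.21e-09). CNN2, a calponin that binds filaments, stood at 529, 502 and 521 CPM in wild type and 655, 719 and 685 in knockout (log2 fold change 0.41, SE 0.04, adjusted p = 2.45e-08). The actinin ACTN4, which crosslinks filaments into bundles, stood at 369, 381 and 387 CPM in wild type and 500.1, 488 and 507 in knockout (log2 fold change 0.39, SE 0.04, adjusted p = 1.18e-08). The wild type libraries of each of these genes lay in a narrow band below all knockout libraries. The filamin FLNA (0.37), LASP1 (0.37) and ACTN1 (0.33) had similar log2 fold changes, and CNN3 (0.17) and LIMA1 (0.14) smaller ones, that of LIMA1 not called without wild type replicate 3.

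All 7 focal adhesion genes were also called higher, with a median log2 fold change of 0.38. PXN (chr12:120648242-120703574) encodes paxillin, a scaffold that recruits signalling proteins to integrins. It stood at 124, 112 and 119.8 CPM in wild type and 179, 192 and 184 in knockout (log2 fold change 0.64, SE 0.04, adjusted p = 9.68e-11), the smallest adjusted p of the 40 genes. ZYX (chr7:143078360-143088206) encodes zyxin, a LIM protein of tensed adhesions, and stood at 276, 265 and 280.3 CPM in wild type and 377, 409 and 398 in knockout (log2 fold change 0.53, SE 0.04, adjusted p = 7.97e-10). PDLIM7, a PDZ and LIM protein that binds actin filaments, stood at 71.5, 71.3 and 76.9 CPM in wild type and 95.03, 102 and 101 in knockout (log2 fold change 0.44, SE 0.05, adjusted p = 1.38e-07). In none of the 3 did the groups overlap. VASP, the elongation factor that zyxin recruits, had a log2 fold change of 0.38, TES of 0.37, VCL of 0.24 and TLN1, which links integrins to actin, of 0.22.

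**Figure D2:**
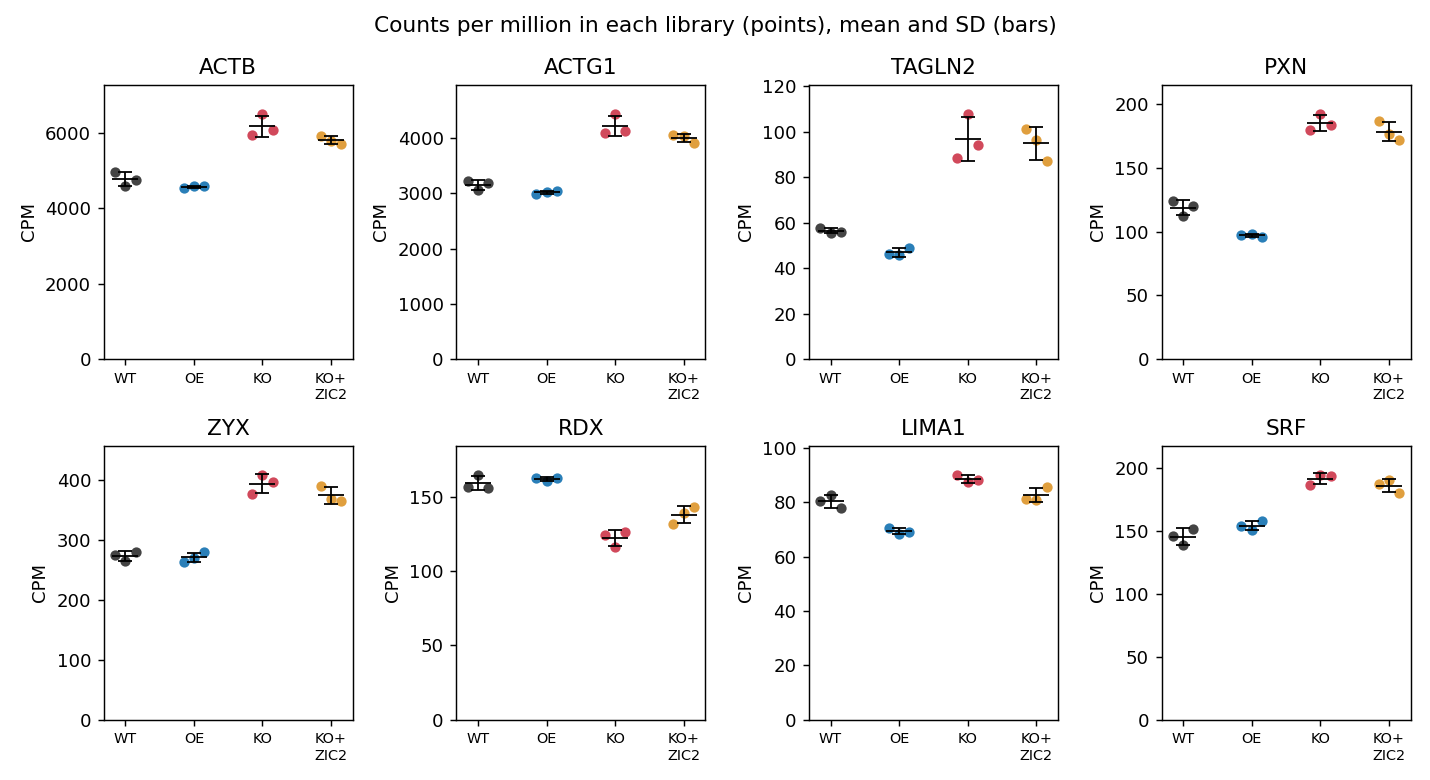
CPM of 8 genes in each library (points), with the group mean and SD (bars, n = 3), in wild type (WT), ZNF263 OE (OE), ZNF263 KO (KO) and ZNF263 KO with ZIC2 OE (KO+ZIC2). Both knockout groups lie above wild type for ACTB, ACTG1, TAGLN2, PXN, ZYX and SRF and below it for RDX, and ZNF263 OE lies below wild type for PXN, LIMA1 and TAGLN2.

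The genes of filament turnover split by family member. PFN1, the main profilin, stood at 1437, 1323 and 1337 CPM in wild type and 1744, 2010.0 and 1803 in knockout (log2 fold change 0.44, SE 0.04, adjusted p = 8.37e-08), with no overlap. Its relative PFN2 fell by 0.14 on the log2 scale (SE 0.04, adjusted p = 0.00682), with 199, 204 and 196 CPM in wild type and 175, 192 and 178 in knockout. CFL1, the main cofilin, rose by a log2 fold change of 0.32 (adjusted p = 4.42e-06). CFL2 fell by 0.17 (SE 0.06, adjusted p = 0.0239), from 32.2, 33.5 and 33.1 CPM to 27.5, 31.3 and 29.6. The call of CFL2 was lost without knockout replicate 1, without wild type replicate 2 or 3, and in DESeq2. DSTN, which also belongs to that family, was not called (log2 fold change 0.01, SE 0.04, adjusted p = 0.82).

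Opposite changes also appeared within the ERM family and between the subunits of capping protein. EZR, the ezrin gene that is typical of epithelial cells, rose by 0.39 (SE 0.03, adjusted p = 7.89e-09), with 497, 488 and 502 CPM in wild type and 640.0, 665 and 645 in knockout. RDX (chr11:110045605-110167437), the radixin gene, fell by 0.38 on the log2 scale (SE 0.04, adjusted p = 2.45e-07), from 157, 164 and 156 CPM to 124, 116 and 126. MSN, the moesin gene, fell by 0.24 (SE 0.04, adjusted p = 2.49e-05), from 243, 257 and 251 CPM to 219.7, 204 and 212. In all 3 genes the groups did not overlap. The capping subunit CAPZB rose by 0.22 and its partner CAPZA1 fell by 0.14 (adjusted p = 0.00433), from 184, 186 and 185 CPM to 169, 170.2 and 166. With the correction for GC content and length described below, CAPZA1 stood at -0.08 (adjusted p = 0.043). Its call was lost when a replicate block was added to that correction.

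Changes of myosin II, tropomyosins and ARP2/3 were mostly smaller. The light chains MYL6, MYL12A and MYL12B had log2 fold changes of 0.38, 0.26 and 0.17, and all were called higher, MYL12B no longer without wild type replicate 2 or 3. The heavy chain MYH9 was called higher (log2 fold change 0.20, SE 0.06, adjusted p = 0.00634), yet its groups overlapped, since knockout replicate 2 at 773 CPM lay within the wild type range of 707 to 779. MYH10 stood at 775, 841 and 844 CPM in wild type and 898, 749 and 880.0 in knockout and was not called (log2 fold change 0.04, SE 0.05, adjusted p = 0.597). Without knockout replicate 2 it was called higher. TPM3 (0.13), TPM4 (0.15), ARPC1B (0.24), ARPC2 (0.18) and ARPC5 (0.15) were called higher.

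Of the transcriptional regulators, SRF rose and the coactivators went in opposite directions. SRF (chr6:43139033-43149244) stood at 146, 139 and 152 CPM in wild type and 187, 195 and 194 in knockout (log2 fold change 0.39, SE 0.04, adjusted p = 7.75e-08). MKL1 stood at 32.6, 34.2 and 37.1 CPM and 45.3, 40.7 and 44.1 (log2 fold change 0.33, SE 0.07, adjusted p = 0.000403). For both, every knockout library was above every wild type library. MKL2 stood at 35.99, 43.6 and 38.1 CPM and 36.4, 28.1 and 34.5 (log2 fold change -0.23, SE 0.08, adjusted p = 0.0229), and its groups overlapped. That call was lost without knockout replicate 2 (-0.14, adjusted p = 0.0911), without wild type replicate 2 (-0.16, adjusted p = 0.163) and with only the 6 libraries of the comparison (adjusted p = 0.0596). Of the 7 genes with a CArG box in a promoter window, 7 were called higher, with a median log2 fold change of 0.37 (range 0.15 to 0.42). Of the 30 without one, 23 were called higher and 5 lower, with a median of 0.22 (range -0.38 to 0.77). The shares over all tested genes were 20% higher and 18.5% lower. ACTB, PFN2 and ARPC1B, which had no matched window, are in neither count. Whether SRF had a part in the changes was not tested.

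**Figure D3:**
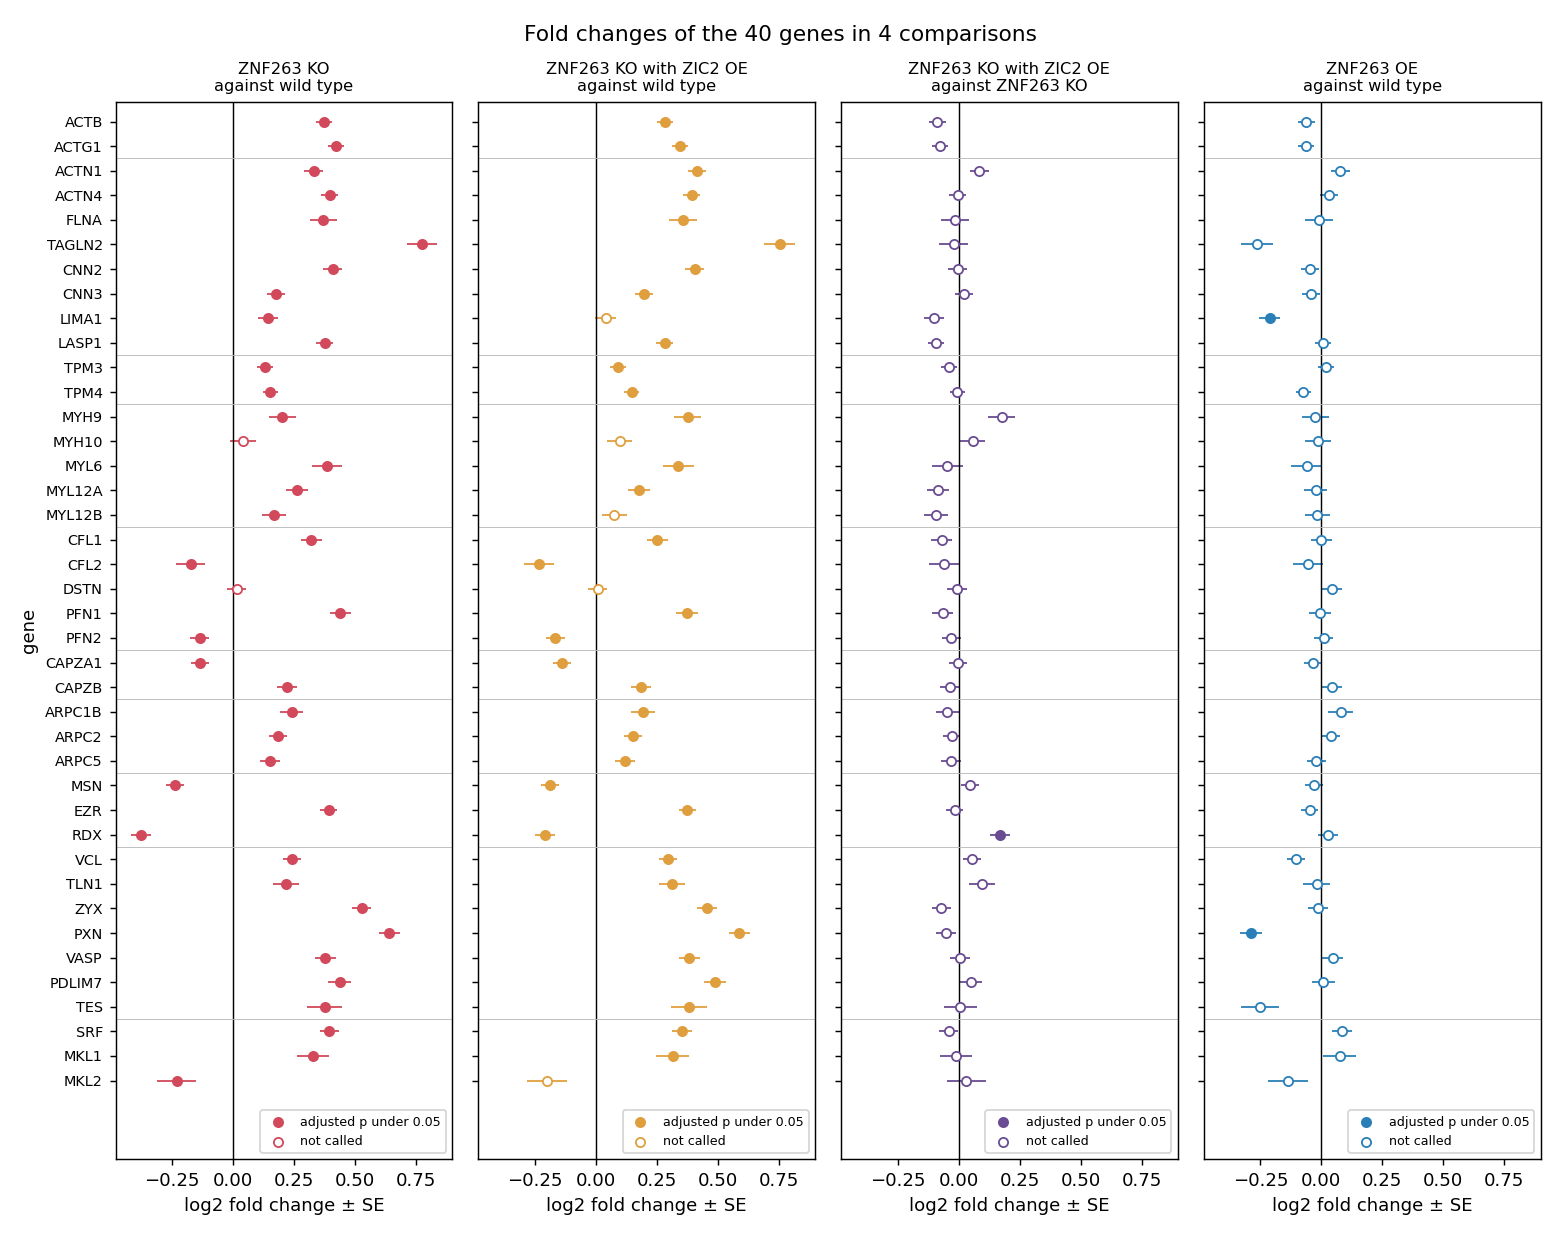
Log2 fold change with its SE (points and bars) for each of the 40 genes in the 4 comparisons, filled where the adjusted p was under 0.05. Nearly the same genes are filled in the first 2 panels, whereas RDX alone is filled for knockout with ZIC2 against knockout, and PXN and LIMA1 for ZNF263 OE.

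A factor common to a whole library cancels in the ratio of 2 genes, whereas a bias by GC content does not, and 12 pairs of related genes were compared. The ratio of EZR to RDX was 2.96 to 3.22 in wild type and 5.11 to 5.72 in knockout, a difference of 0.77 on the log2 scale. The ratio of MSN to EZR was 0.489 to 0.526 in wild type and 0.307 to 0.343 in knockout. The ratio of PFN1 to PFN2 was 6.49 to 7.23 in wild type and 9.94 to 10.5 in knockout, and that of CFL1 to CFL2 was 24.8 to 28.0 and 35.6 to 37.1. In each of these pairs the groups did not overlap. The ratio of MKL1 to MKL2 was 0.785 to 0.975 in wild type and 1.24 to 1.45 in knockout, also without overlap. TPM4 to TPM3 was the 1 pair whose ratios overlapped between these groups. The exact two-sided permutation p was 0.1 for the other 11 pairs, the smallest that 3 against 3 libraries allow, and 0.109 after adjustment over the 12 pairs, so none could pass the threshold. With the correction for GC content and length described below, applied to the ratios after the data had been seen, the log2 difference fell from 0.48 to 0.17 for CFL1/CFL2, from 0.57 to 0.35 for PFN1/PFN2 and from 0.58 to 0.37 for MKL1/MKL2. It went from 0.77 to 0.59 for EZR/RDX and from -0.63 to -0.60 for MSN/EZR, while ACTN1/ACTN4, TPM4/TPM3 and MSN/RDX changed sign.

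**Figure D4:**
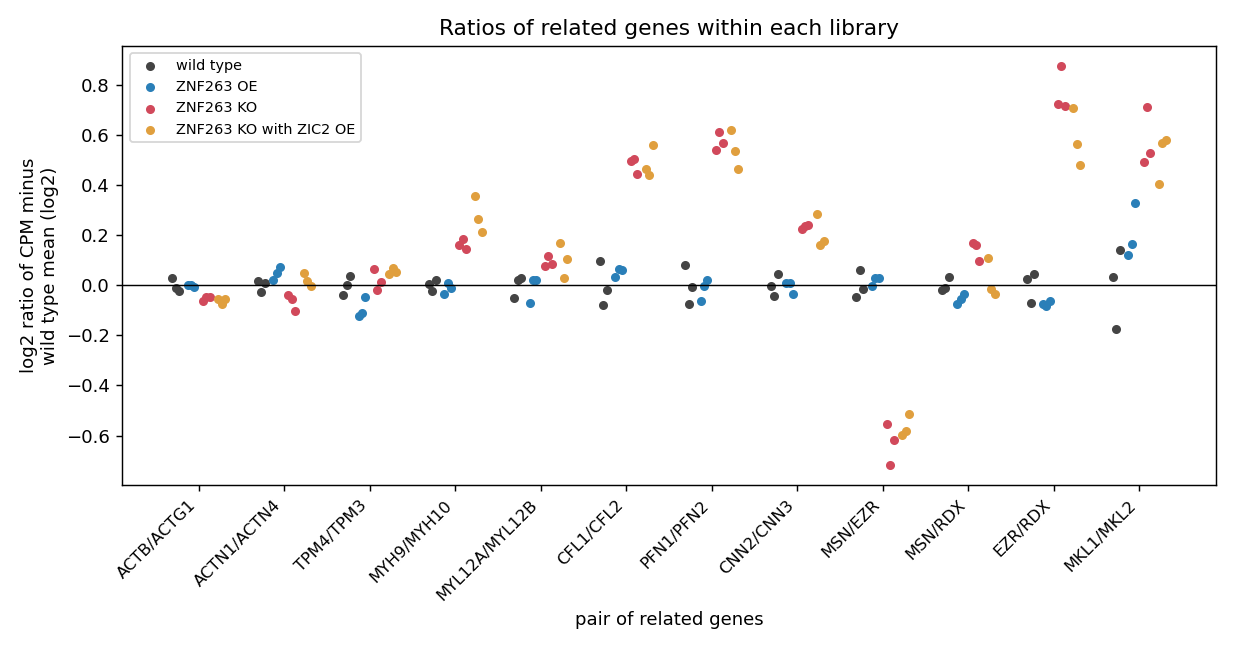
Log2 ratio of the CPM of 2 related genes in each library, minus the wild type mean of that pair, for 12 pairs (points, coloured by group). Both knockout groups lie above wild type for CFL1/CFL2, PFN1/PFN2, EZR/RDX and MKL1/MKL2 and below it for MSN/EZR.

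Other genes of the actin machinery were taken from lists by role. Of 89 tested, 32 were called higher and 15 lower in knockout, against 20% and 18.5% of all tested genes. Lower calls were thus not more frequent among the 89 than over all tested genes. Their median log2 fold change was 0.04. The same shares stand beside the counts of each list in this paragraph. Of 24 nucleation genes 7 were higher and 6 lower, among them WASF3, a WAVE subunit that activates ARP2/3 (log2 fold change -0.58, SE 0.05, adjusted p = 2.69e-08), and the formin DIAPH3 (log2 fold change 0.32, SE 0.05, adjusted p = 3.34e-05). Of 18 turnover genes 6 were higher and 3 lower, and the largest changes were those of TMSB10, a thymosin that sequesters monomers (log2 fold change 0.81, SE 0.07, adjusted p = 3.17e-09), and the cofilin phosphatase SSH3 (log2 fold change 0.34, SE 0.11, adjusted p = 0.0136). SSH3 was at a low level, with means of 6.05 CPM in wild type and 7.59 in knockout. Of 13 further crosslinking and contractile genes 6 were higher and 1 lower, led by the light chain MYL9 (log2 fold change 1.01, SE 0.06, adjusted p = 1.65e-11) and the caldesmon gene CALD1 (log2 fold change 0.59, SE 0.04, adjusted p = 2.56e-11). Of 18 further adhesion genes 8 were higher and 1 lower, among them TGFB1I1, a paxillin relative (log2 fold change 0.82, SE 0.15, adjusted p = 0.000196), and the adaptor BCAR1 (log2 fold change 0.49, SE 0.04, adjusted p = 7.45e-09). TGFB1I1 was also at a low level, with means of 2.09 CPM in wild type and 3.74 in knockout. In a list of 10 muscle-type SRF targets, 6 were higher and 0 lower in edgeR (0 lower also at an unadjusted p under 0.05), and their summed CPM was 276 to 314 in wild type and 762 to 975 in knockout.

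Markers of other cell types were at mixed levels. Of 10 fibroblast genes, 5 stayed under 1 CPM in every group, with COL3A1, DCN and LUM at or below 0.111 CPM and DCN at 0 in wild type. Their summed level, in which THY1 was the largest part, was 505 to 517 CPM in wild type, 554 to 599.7 in knockout, 635 to 686 in knockout with ZIC2 and 507 to 519.8 in ZNF263 OE. The level that differed most was that of the collagen gene COL1A1, with means of 69.2, 111, 211 and 64.9 CPM in that order of groups. The sums were 458 to 484, 532 to 581, 561 to 623 and 471 to 480.0 CPM for 7 neuroectoderm genes, mostly NES, in the same order of groups. Of the 5 neuroectoderm genes tested in knockout, 1 was called higher and 1 lower, with a median log2 fold change of -0.06. For the 6 fibroblast genes tested the counts were 4 and 0, and the median was 0.24. They were 1 and 0 for 3 mesoderm and endoderm genes, and 1 and 0 for 2 trophoblast genes. In these 3 lists 0 genes were lower at an unadjusted p under 0.05. The shares called over all tested genes were 20% and 18.5%. NES had means of 349, 465, 484 and 343 CPM, and MAP2 went the other way, with 45.2, 19.3, 28.5 and 48.9. For 9 mesoderm and endoderm genes they were 6.29 to 7.11, 7.97 to 9.96, 8.90 to 11.04 and 3.88 to 6.49 CPM, with HAND1 and SOX17 at 0 in wild type. For 6 trophoblast genes they were 5.14 to 5.44, 5.71 to 7.23, 7.09 to 8.51 and 7.43 to 7.85 CPM. The part of these levels in the result was not tested.

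Transcript GC content moved with the result, and exon length less so. Across the 40 genes the log2 fold change in knockout rose with GC content (Spearman 0.74), as it did across the 14978 tested genes with a value (0.42). Its Spearman correlation with exon length over the 40 genes was -0.26. These are correlations across genes, which are not independent replicates. Genes called higher had a median GC of 56.5% and those called lower of 42.0%. Knockout replicate 2 was the highest of its group for 27 of the 40 genes and the lowest for 12, and its deviation fell with exon length (Spearman -0.81 over the 40 genes, -0.42 over all tested genes). In a fit that removed GC and length trends from each library, 30 genes were called higher and 4 lower with a median of 0.23, against 15.7% and 13.9% of all tested genes, and the calls of MYL12B, CFL2, ARPC1B and MKL2 were lost. Several values shrank by more than 1.5 times, such as PFN1 (to 0.25), ACTB (0.24), ACTG1 (0.28), ZYX (0.34), PDLIM7 (0.26), CFL1 (0.13) and RDX (-0.23). By a smaller factor, TAGLN2 fell from 0.77 to 0.62 and PXN from 0.64 to 0.55. TES (0.42), EZR (0.36) and MSN (-0.25) stayed near their uncorrected values. LIMA1 and TPM3 had larger values than before, 0.27 and 0.24. Scaling by library totals alone gave 2614 higher and 3615 lower calls over all genes, in place of 3095 and 2856, and the same 32 and 6 counts for the 40 genes.

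**Figure D5:**
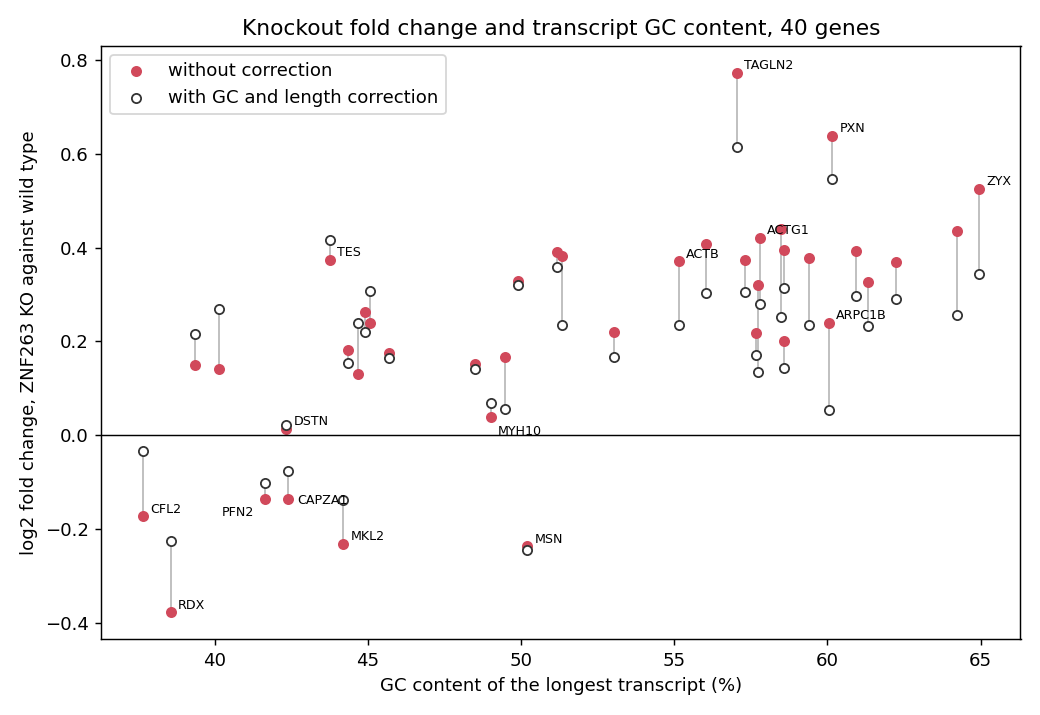
Log2 fold change of knockout against wild type for the 40 genes (vertical axis) against the GC content of the longest transcript in percent (horizontal axis), without (red) and with (open) correction for GC and length. Genes above 55% GC are all positive before correction and smaller after it, and the lowest values belong to RDX and MSN.

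Knockout cells that overexpressed ZIC2 differed from wild type in much the same genes. Of the 40, 30 were called higher, against 20.3% of all tested genes, and 5 lower (CAPZA1, PFN2, MSN, RDX and CFL2), against 17.3%, with a median log2 fold change of 0.28. Since both comparisons use the same wild type libraries, their likeness is not independent. The 35 genes called here were called in the same direction in knockout, and MYL12B, LIMA1 and MKL2 were called in knockout alone. In the corrected fit 28 were called higher and 3 lower, with a median of 0.15, against 12.9% and 16.3% of all tested genes. The median over all tested genes in that fit was -0.02.

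TAGLN2 again led, at 101, 96.3 and 87.03 CPM (log2 fold change 0.75, SE 0.06, adjusted p = 5.15e-09 against wild type). It was followed by PXN at 187, 176 and 172 CPM (log2 fold change 0.59, SE 0.04, adjusted p = 5.75e-10), PDLIM7 at 105, 105 and 98.6 (log2 fold change 0.49, SE 0.05, adjusted p = 3.49e-08) and ZYX at 391, 369 and 365 (log2 fold change 0.46, SE 0.04, adjusted p = 1.02e-08). Every library of these 4 genes was above the wild type libraries given earlier. ACTN1 stood at 369, 370.2 and 385 CPM in wild type and 532, 486 and 479.6 with ZIC2 (log2 fold change 0.41, SE 0.04, adjusted p = 2.42e-08). CNN2 stood at 715, 666 and 671 CPM (log2 fold change 0.40, SE 0.04, adjusted p = 3.4e-08), and ACTN4 at 520.3, 486 and 486 (log2 fold change 0.39, SE 0.04, adjusted p = 1.63e-08). VASP stood at 161, 149 and 149 CPM in wild type and 202, 204 and 193 with ZIC2 (log2 fold change 0.38, SE 0.04, adjusted p = 3.53e-07). None of these groups overlapped with wild type.

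The actins stood at 5931, 5805 and 5719 CPM for ACTB (log2 fold change 0.28, SE 0.03, adjusted p = 8.56e-07) and 4062, 4040.5 and 3922 for ACTG1 (log2 fold change 0.35, SE 0.03, adjusted p = 2.52e-08), all above wild type. In the corrected fit their log2 fold changes were 0.11 and 0.15, and those of ZYX, PDLIM7, VASP, CNN2 and ACTN4 were 0.25, 0.28, 0.18, 0.24 and 0.24. SRF stood at 187, 191 and 181 CPM (log2 fold change 0.35, SE 0.04, adjusted p = 5.07e-07; 0.19 corrected) and MKL1 at 41.6, 40.8 and 47.4 (log2 fold change 0.32, SE 0.07, adjusted p = 0.000804). The call of MKL1 was lost in the corrected fit (0.15, adjusted p = 0.0504), as were those of CFL1, CFL2, CAPZB, ARPC1B and RDX, with ARPC1B at -0.04 in place of 0.19. MKL2 stood at 35.5, 31.1 and 35.8 CPM, below all wild type libraries, and was not called (log2 fold change -0.20, SE 0.08, adjusted p = 0.0581). Of 89 other machinery genes 35 were higher and 18 lower, against 20.3% and 17.3% of all tested genes. Among them were 7 and 8 for nucleation, 5 and 4 for turnover, 9 and 0 for crosslinking and 10 and 0 for adhesion (9 and 1, and 10 and 0, at an unadjusted p under 0.05).

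Named by size of change, these included FSCN1, which bundles filaments in protrusions (log2 fold change 0.92, SE 0.05, adjusted p = 1.16e-11), MYL9 (log2 fold change 0.85, SE 0.06, adjusted p = 4.02e-10), TMSB10 (log2 fold change 0.76, SE 0.07, adjusted p = 1.08e-08) and the tensin genes TNS1 (log2 fold change 0.75, SE 0.10, adjusted p = 4.53e-06) and TNS3 (log2 fold change 0.49, SE 0.06, adjusted p = 2.91e-06). WDR1, a cofilin partner (log2 fold change 0.28, SE 0.03, adjusted p = 8.76e-07), was also higher. The WAVE genes WASF3 (log2 fold change -0.41, SE 0.06, adjusted p = 6.98e-06) and WASF1 (log2 fold change -0.37, SE 0.05, adjusted p = 9.15e-06) were lower.

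Between the knockout groups, which differ in the overexpression of ZIC2, 1 of the 40 genes was called higher and 0 lower in edgeR, against 4.99% and 3.35% of all tested genes. At an unadjusted p under 0.05 the counts were 3 and 4, against 10.3% and 9.62% of all tested genes. DESeq2 gave 1 and 0, against 3.23% and 2.28%. The median log2 fold change was -0.02. The called gene was RDX, with 124, 116 and 126 CPM in knockout and 131, 139 and 143 with ZIC2 (log2 fold change 0.17, SE 0.04, adjusted p = 0.0101). Every library with ZIC2 was above every knockout library and below every wild type library. The call rested on replicate 3 of the ZIC2 group (without it 0.14, adjusted p = 0.0673) and was lost with only the 6 libraries of the comparison (adjusted p = 0.0547).

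The actins were lower with ZIC2 in every library, by -0.09 for ACTB (SE 0.03, adjusted p = 0.128) and -0.08 for ACTG1 (SE 0.03, adjusted p = 0.175) on the log2 scale, and neither passed the test. ACTB was called without knockout replicate 1 (-0.12, adjusted p = 0.0389). SRF (-0.04, adjusted p = 0.648), MKL1 (-0.01, adjusted p = 0.96) and MKL2 (0.03, adjusted p = 0.889) were not called. The heavy chain MYH9 had the largest value of the uncalled genes (log2 fold change 0.18, SE 0.06, adjusted p = 0.0525). The corrected fit changed this comparison: 2 genes were called higher (RDX and MYH9) and 10 lower, against 5.56% and 9.58% of all tested genes, with a median of -0.06. Over all tested genes the median in that fit was -0.02, so part of the shift was common to all genes. The lower genes included ACTB (-0.13, adjusted p = 0.000102), ACTG1 (-0.13, adjusted p = 6.62e-05), LASP1 (-0.17, adjusted p = 3.93e-05), PFN1 (-0.10, adjusted p = 0.00527), PXN (-0.12, adjusted p = 0.0146) and SRF (-0.11, adjusted p = 0.0213). Over all genes that fit called 859 higher and 1479 lower, in place of 771 and 517.

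Of the 89 other machinery genes 7 were called higher and 4 lower with ZIC2, against 4.99% and 3.35% of all tested genes. FSCN1 rose from 421 to 543 CPM (log2 fold change 0.37, SE 0.05, adjusted p = 2.97e-05), and the myosin heavy chain MYH14 rose as well (log2 fold change 0.29, SE 0.06, adjusted p = 0.00333). Of the adhesion genes, TNS1 was higher (log2 fold change 0.51, SE 0.09, adjusted p = 0.000545) and TGFB1I1 lower (log2 fold change -0.71, SE 0.15, adjusted p = 0.00348). Both were at low levels, TNS1 with means of 6.96 CPM in knockout and 9.96 with ZIC2, and TGFB1I1 with 3.74 and 2.27. Counted by role, 3 crosslinking genes were higher and 1 lower, and 3 adhesion genes were higher and 2 lower. No nucleation or turnover gene was called by edgeR, with 2 and 1 nucleation genes and 0 and 3 turnover genes at an unadjusted p under 0.05. Of all tested genes, 10.3% were higher and 9.62% lower at that unadjusted threshold. The 10 muscle-type SRF targets gave 1 higher and 2 lower, with a summed CPM of 726 to 822 with ZIC2.

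Overexpression of ZNF263 left most of the 40 genes near the wild type level. In edgeR 0 were called higher and 2 lower, against 0.317% and 0.447% of all tested genes, with a median log2 fold change of -0.02. At an unadjusted p under 0.05 the counts were 1 and 6, against 5.26% and 5.3% of all tested genes. DESeq2 gave 0 and 3, against 0.24% and 0.422%. The summed CPM of the 40 genes was 0.977 times that of wild type, and their share of all counts 2.14 to 2.17%.

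The called genes were PXN and LIMA1. PXN stood at 124, 112 and 119.8 CPM in wild type and 97.5, 98.00 and 95.8 in ZNF263 OE (log2 fold change -0.29, SE 0.04, adjusted p = 0.000947). LIMA1 (chr12:50569563-50677353), which encodes EPLIN, a protein that bundles filaments at cell junctions, stood at 80.6, 82.8 and 77.8 CPM in wild type and 70.5, 68.5 and 69.3 in ZNF263 OE (log2 fold change -0.21, SE 0.04, adjusted p = 0.0133). For both genes all overexpression libraries were below all wild type libraries. The call of LIMA1 needed wild type replicates 1 and 2 and overexpression replicates 2 and 3, and leaving out any of them gave adjusted p-values of 0.0566 to 0.12. In knockout the same genes had log2 fold changes of 0.64 for PXN and 0.14 for LIMA1, in a comparison that shares the wild type libraries. TAGLN2 stood at 46.1, 45.6 and 48.9 CPM in ZNF263 OE, also below all wild type libraries, and was not called (log2 fold change -0.26, SE 0.07, adjusted p = 0.0732), although the corrected fit called it (-0.29, adjusted p = 0.000834).

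ACTB stood at 4543, 4596 and 4598 CPM in ZNF263 OE (log2 fold change -0.06, SE 0.03, adjusted p = 0.554) and ACTG1 at 2995, 3029 and 3046 (log2 fold change -0.06, SE 0.03, adjusted p = 0.527). Every one of these libraries was below every wild type library, but for ACTB the nearest libraries of the groups almost touched, and neither gene passed the test. The corrected fit called 0 genes higher and 5 lower, against 0.706% and 0.79% of all tested genes, with ACTB (-0.08, adjusted p = 0.0457) and ACTG1 (-0.09, adjusted p = 0.0188) among them. SRF stood at 154, 151 and 158 CPM (log2 fold change 0.08, SE 0.04, adjusted p = 0.469), MKL1 at 33.9, 36.8 and 38.9 (log2 fold change 0.08, SE 0.07, adjusted p = 0.763) and MKL2 at 35.2, 37.1 and 34.99 (log2 fold change -0.14, SE 0.08, adjusted p = 0.596), each overlapping with wild type. At an unadjusted p under 0.05, 8 of the 89 other machinery genes were higher and 12 lower, against 5.26% and 5.3% of all tested genes. DESeq2 gave 0 and 3, against 0.24% and 0.422%. In edgeR 0 of these machinery genes were called higher and 3 lower, against 0.317% and 0.447%. These were CALD1, which fell from 434 to 341 CPM (log2 fold change -0.35, SE 0.04, adjusted p = 6.5e-06), the adhesion gene LPP (log2 fold change -0.26, SE 0.05, adjusted p = 0.00896) and CYFIP1 of the WAVE complex (log2 fold change -0.25, SE 0.04, adjusted p = 0.00179). Of the muscle-type SRF targets 0 were higher and 1 lower (3 and 3 at an unadjusted p under 0.05), with a summed CPM of 232 to 249.

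Some counts could hold or lose reads of other genes. In GENCODE 29 transcripts, 73.1% of ARPC1B also lies in the overlapping gene AC004922.1, and runs of at least 100 bases are shared for 13.8% of TAGLN2, 10.5% of PFN1, 10.5% of TPM4, 7.34% of TPM3 and 5.31% of ACTB, in part with their pseudogenes. ACTG1 shared none. Exons of PXN overlap those of PXN-AS1 on the other strand over 824 bases, those of ACTN4 overlap CAPN12 over 682, and those of ARPC1B overlap PDAP1 over 107. The labels name no kit that marks the strand, so such reads were treated as inseparable. PXN-AS1 held 1264 counts over all libraries against 37529 for PXN, and CAPN12 held 662 against 113265 for ACTN4. PDAP1, in contrast, held 55783 against 14460 for ARPC1B. Exons of MKL1 overlap those of SGSM3 on the other strand over 90 bases, with 8316 counts for SGSM3 against 10165 for MKL1. How many reads came from the overlaps was not tested.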

How the data were processed

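Poly(A) RNA was isolated with TRIzol and made into libraries with a NEBNext Ultra II RNA kit, per the labels' protocols. The authors deposited 1 table of whole-number counts per gene with no normalization, made from uniquely aligned reads per the file headers. The submitters' processing notes name STAR, featureCounts, DESeq2 and the build hg19, without versions or roles. From these counts, edgeR 4.0.16 (R 4.3.3, limma 3.58.1) was run here on all 12 libraries with TMM scaling, filterByExpr and quasi-likelihood tests, which left 8 residual degrees of freedom. The Benjamini-Hochberg threshold was an adjusted p of 0.05. The script was tested on simulated data. The genes and lists were chosen with earlier results of these data known. Named in each comparison were ACTB, ACTG1, SRF, MKL1, MKL2, the called genes with the 8 largest changes, and up to 2 called genes of each machinery list, with other genes given by role. The results of 1 machinery list are not reported here on their own. Alternatives were DESeq2 1.42.0, its size factors, no filter, 6-library fits, left-out replicates, thinning to the smallest total, and a replicate block. A further alternative corrected for GC content of the longest GENCODE 29 transcript and exon length as deposited, by splines with 4 degrees of freedom. Scaling by library totals, and the corrected ratios of related genes, were chosen after seeing the data. No replicate pair differed by so little that it was treated as 1 library.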

Additional observations from a re-analysis of the deposited data

How the results depend on the processing

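In knockout against wild type, 30 to 33 of the 40 genes were called higher under each alternative. The correction for GC content and length changed these counts. For ZNF263 OE it gave 5 of the 40 genes lower and 3 machinery genes higher and 6 lower. For knockout with ZIC2 against knockout it gave 2 higher, 10 lower, a median log2 fold change of -0.061 and 14 machinery genes lower. For knockout with ZIC2 against wild type it gave 3 lower and a median of 0.15. Its cause was not tested.

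The replicate numbers did not pair the samples, since correlations of same-numbered libraries ran from -0.101 to 0.103. The replicate block alone gave 2 genes higher for knockout with ZIC2 against knockout. The replicate block with the GC and length correction gave 3 lower in knockout, 5 lower, with 3 machinery genes higher and 6 lower, in ZNF263 OE, and 2 higher, 11 lower, 13 machinery genes lower and a median of -0.061 between the knockout groups. Against wild type it gave 3 lower and a median of 0.16 with ZIC2.

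With no filter, ZNF263 OE had 4 genes lower and 1 machinery gene higher and 6 lower, knockout with ZIC2 against knockout 2 higher and 1 lower, and the median against wild type was 0.27. With 6 libraries, ZNF263 OE had 5 lower and 4 machinery genes higher and 6 lower, and the knockout groups 0 higher and 2 machinery genes lower. With library totals alone, 2 genes were higher between the knockout groups, the median with ZIC2 against wild type was 0.25, and the summed CPM in knockout was 1.21 times wild type.

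Leaving out 1 replicate gave 1 to 2 lower for ZNF263 OE. Between the knockout groups it gave 0 to 2 higher, 0 to 1 lower, 4 to 8 machinery genes higher (4 without ZIC2 replicate 1) and 2 to 7 lower (7 without knockout replicate 1). The median with ZIC2 against wild type was 0.26 to 0.29, and the summed CPM in ZNF263 OE 0.969 to 0.982 times wild type. TPM3 or ARPC5 lost its call with ZIC2 against wild type without any replicate of the ZIC2 group and without wild type replicate 2 or 3.

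Over all genes, ZNF263 OE gave 49 higher and 69 lower calls, 99 and 121 with no filter, 210 and 221 with 6 libraries, 109 and 122 with the correction, 114 and 118 with the replicate block as well, and 17 to 28 and 32 to 49 with a replicate left out. Knockout with ZIC2 against knockout gave 593 and 289 with 6 libraries, 849 and 1450 with block and correction, and 536 and 306 without ZIC2 replicate 1. Against wild type, 3126 and 2678 became 1990 and 2518 with the correction and 1983 and 2516 with the block as well.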
